A study of Arabidopsis thaliana with 48 samples.

Results

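The early flavonoid and flavonol genes of Arabidopsis thaliana are described here in seedlings labelled as mutants of INO80 or of other genes named below. Further lines carry a full or truncated INO80 transgene. The set was chosen by locus, from known roles in the pathway, and holds 10 of the 32548 loci in each expression table. It contains 5 enzyme genes (CHS, CHI, F3H, F3'H and FLS1), 3 MYB regulator genes (MYB11, MYB12 and MYB111) and 2 glycosyltransferase genes (UGT78D1 and UGT78D2).

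The data are 48 RNA-seq libraries of seedlings grown on MS plates at 23°C in the light and 22°C in the dark. Of the 9 genotypes, 5 are mutants: the single mutants ino80 and arp5, the double mutant uch1/2, and the triple mutants nfrkb1/2/3 and atx4/5;jmj24. Another 3 are transgenic lines in the ino80 mutant: INO80-(1-550), with only the N-terminal residues 1 to 550, INO80-(335-1540), with only residues 335 to 1540, and INO80-FL, with the full-length protein. The last is the wild type, Col-0. Short days (SD) had 8 h of light and 16 h of darkness, and SD seedlings were 14 days old. Long days (LD) had 16 h of light and 8 h of darkness, and LD seedlings were 11 days old. Set 1 holds repeats 1 and 2 of every genotype in both day lengths (36 libraries). Set 2 holds repeats 3 and 4 of ino80, nfrkb1/2/3, uch1/2, atx4/5;jmj24, INO80-FL and Col-0 in SD (12 libraries), whose own labels give no age, though the labels' protocol gives 14 days for SD. The labels name neither the transgenes' promoter nor how many independent transformants were used, and they do not say that repeats came from separate cultures. The p-values therefore measure the spread between these samples, which may be technical.

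Flavonols such as kaempferol and quercetin are phenolic compounds that absorb ultraviolet light and shape auxin transport, and seedlings hold them as glycosides. Chalcone synthase (CHS) builds the flavonoid skeleton, chalcone isomerase (CHI) closes its ring, F3H and F3'H hydroxylate it, and flavonol synthase (FLS1) turns the resulting dihydroflavonols into flavonols. The same dihydroflavonols feed the anthocyanin branch through DFR. MYB11, MYB12 and MYB111 are closely related activators of CHS, CHI, F3H and FLS1; in seedlings MYB12 is known to act mainly in roots and MYB111 mainly in cotyledons. UGT78D1 adds rhamnose and UGT78D2 adds glucose to flavonols, and UGT78D2 also glucosylates anthocyanidins. INO80 is the ATPase subunit of a chromatin remodeler that moves nucleosomes and exchanges histones.

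Library totals were 18.9 to 22.7 M normalized reads in set 1 and 20.1 to 22.9 M in set 2. A value of 1 is about 1 read, and every level below is in these units unless it is given per kb of exon. In LD the INO80 transcript read 941 and 783 in ino80, 6551 and 6307 in INO80-(1-550), 12630 and 11550 in INO80-(335-1540), and 4955 and 4616 in INO80-FL, against 1582 and 1579 in Col-0. ARP5 went against its label, with 5822 and 5649 in the libraries labelled arp5 in LD against 334 and 293 in Col-0. Those libraries are called "labelled arp5" below and no statement on ARP5 loss is drawn from them; counts out of 5 mutants include them by their label only. In nfrkb1/2/3 in LD, AT3G45830 read 8 and 31 and AT1G02290 42 and 54, against 548 and 530 and against 274 and 275 in Col-0. The third locus, AT5G13950, still read 905 and 1018 in nfrkb1/2/3, against 1401 and 1571 in Col-0. In uch1/2 in LD, UCH2 read 75 and 72 against 506 and 533 in Col-0, and UCH1 90 and 80 against 180 and 204. In atx4/5;jmj24 in LD, ATX4 read 90 and 83 against 342 and 311 and JMJ24 322 and 271 against 949 and 1043, while ATX5 read 267 and 332 against 341 and 353. Markers of green leaf, root and seed were followed in every library, since seedlings mix organs. In bulk tissue, fewer cells of a type and less RNA per cell cannot be told apart.

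The members differ greatly in how well they were measured. F3H (AT3G51240) lies on chromosome 3 at 19025192 to 19026872 on the plus strand in RefSeq's TAIR10.1 assembly, and an antisense noncoding gene, AT3G51238, covers 1588 of its 1681 bases. Of the exon bases of F3H, 93.8% are shared with that gene, and F3H read 0 to 17.2 over all 48 libraries. AT3G51238 read at most 6.21 in set 1 and 2.81 in set 2, so that gene was also low. Among protein-coding genes with at least 90% of their exon bases shared with another gene, 96.6% of 561 had a mean under 10 in set 1, whereas 26.4% of the 23870 genes with under 10% shared did. How the authors assigned reads in overlapping genes is not given in the sources used here, so the F3H values are printed but not read as its expression. MYB11 (AT3G62610) read 0 to 22.6, a range at which only large changes can be seen, and 8.01% of its exon bases are shared with AT3G62615. In the same assembly, CHS (AT5G13930) spans chr5:4488476-4490264 on the plus strand, F3'H (AT5G07990) chr5:2560328-2563137 (plus), FLS1 (AT5G08640) chr5:2803833-2805606 (plus), MYB111 (AT5G49330) chr5:19998823-20001572 (minus) and UGT78D2 (AT5G17050) chr5:5607788-5609589 (minus). CHI (AT3G55120) spans chr3:20430059-20431597 (minus), MYB12 (AT2G47460) chr2:19476326-19479597 (plus) and UGT78D1 (AT1G30530) chr1:10814612-10816615 (plus). These 8 members had means of 64.4 to 5690 over the 36 libraries of set 1. In the reference, no stretch of 50 bases in the exons of these 8 occurs elsewhere, apart from 1 in UGT78D2.

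In Col-0 in LD, levels per kb of exon ran from CHS at 3873 through UGT78D1 at 839.5, CHI at 743.1, UGT78D2 at 566.7, FLS1 at 466.6 and F3'H at 152.3 to MYB12 at 61.75 and MYB111 at 44.41. Among these 8 in LD, the enzyme and glycosyltransferase transcripts were more abundant than those of MYB12 and MYB111. CHS stood far above the rest there. In Col-0 in SD of set 1 this order did not hold. F3'H was at 33.38 per kb, below MYB12 at 82.97 and MYB111 at 57.22, and CHS at 1531 was below UGT78D2 at 1603.

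The promoters of 4 members are printed because the results below turn on these genes. Each shows the 250 bases before the annotated start, read 5′ to 3′ from RefSeq's TAIR10.1 assembly. They are CHS at chr5:4488226-4488475 (plus strand), FLS1 at chr5:2803583-2803832 (plus strand), MYB12 at chr2:19476076-19476325 (plus strand) and UGT78D2 at chr5:5609590-5609839 (minus strand). Capitals mark any ACGT core, which includes the G-box CACGTG bound by light regulators such as HY5, the MYB element ACCAAAC and its variants spelt ACCAACC or spelt ACCTAAC or spelt ACCTACC, and the evening element AAAATATCT of clock-controlled genes, all on either strand.
CHS: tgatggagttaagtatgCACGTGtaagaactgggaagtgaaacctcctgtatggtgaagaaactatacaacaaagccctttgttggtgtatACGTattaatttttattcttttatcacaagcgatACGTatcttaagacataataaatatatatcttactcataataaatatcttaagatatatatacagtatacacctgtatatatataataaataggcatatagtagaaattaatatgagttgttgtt
FLS1: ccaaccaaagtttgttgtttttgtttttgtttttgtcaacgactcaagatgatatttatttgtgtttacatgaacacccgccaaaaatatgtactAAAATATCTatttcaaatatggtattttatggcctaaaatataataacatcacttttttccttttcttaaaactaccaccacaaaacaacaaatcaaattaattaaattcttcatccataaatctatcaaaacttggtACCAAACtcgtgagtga
MYB12: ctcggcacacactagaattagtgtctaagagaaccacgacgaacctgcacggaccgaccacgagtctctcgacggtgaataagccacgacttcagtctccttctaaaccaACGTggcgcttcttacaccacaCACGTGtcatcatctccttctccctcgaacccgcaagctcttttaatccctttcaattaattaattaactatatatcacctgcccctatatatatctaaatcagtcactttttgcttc
UGT78D2: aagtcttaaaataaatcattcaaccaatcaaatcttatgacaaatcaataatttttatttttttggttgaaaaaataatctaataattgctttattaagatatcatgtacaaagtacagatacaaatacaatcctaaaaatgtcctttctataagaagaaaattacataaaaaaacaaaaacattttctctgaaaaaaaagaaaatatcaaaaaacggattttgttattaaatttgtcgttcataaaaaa

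CHS has a G-box that begins 233 bases before its start and 2 further ACGT cores, MYB12 has a G-box 118 bases before its start, and FLS1 has an evening element at 155 bases and the MYB element ACCAAAC at 17 bases. UGT78D2 has none of these letters in its window. Over all members, 3 of 10 windows hold a G-box, against 6.49% of 27443 promoters of the same length, and 5 hold an ACGT core, against 44.1%. Any of the 4 MYB elements is in 1 member window, against 13.7% of promoters, and the evening element in 1, against 2.36%. These matches describe letters in a window and were not tested as binding sites.

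**Figure D1:**
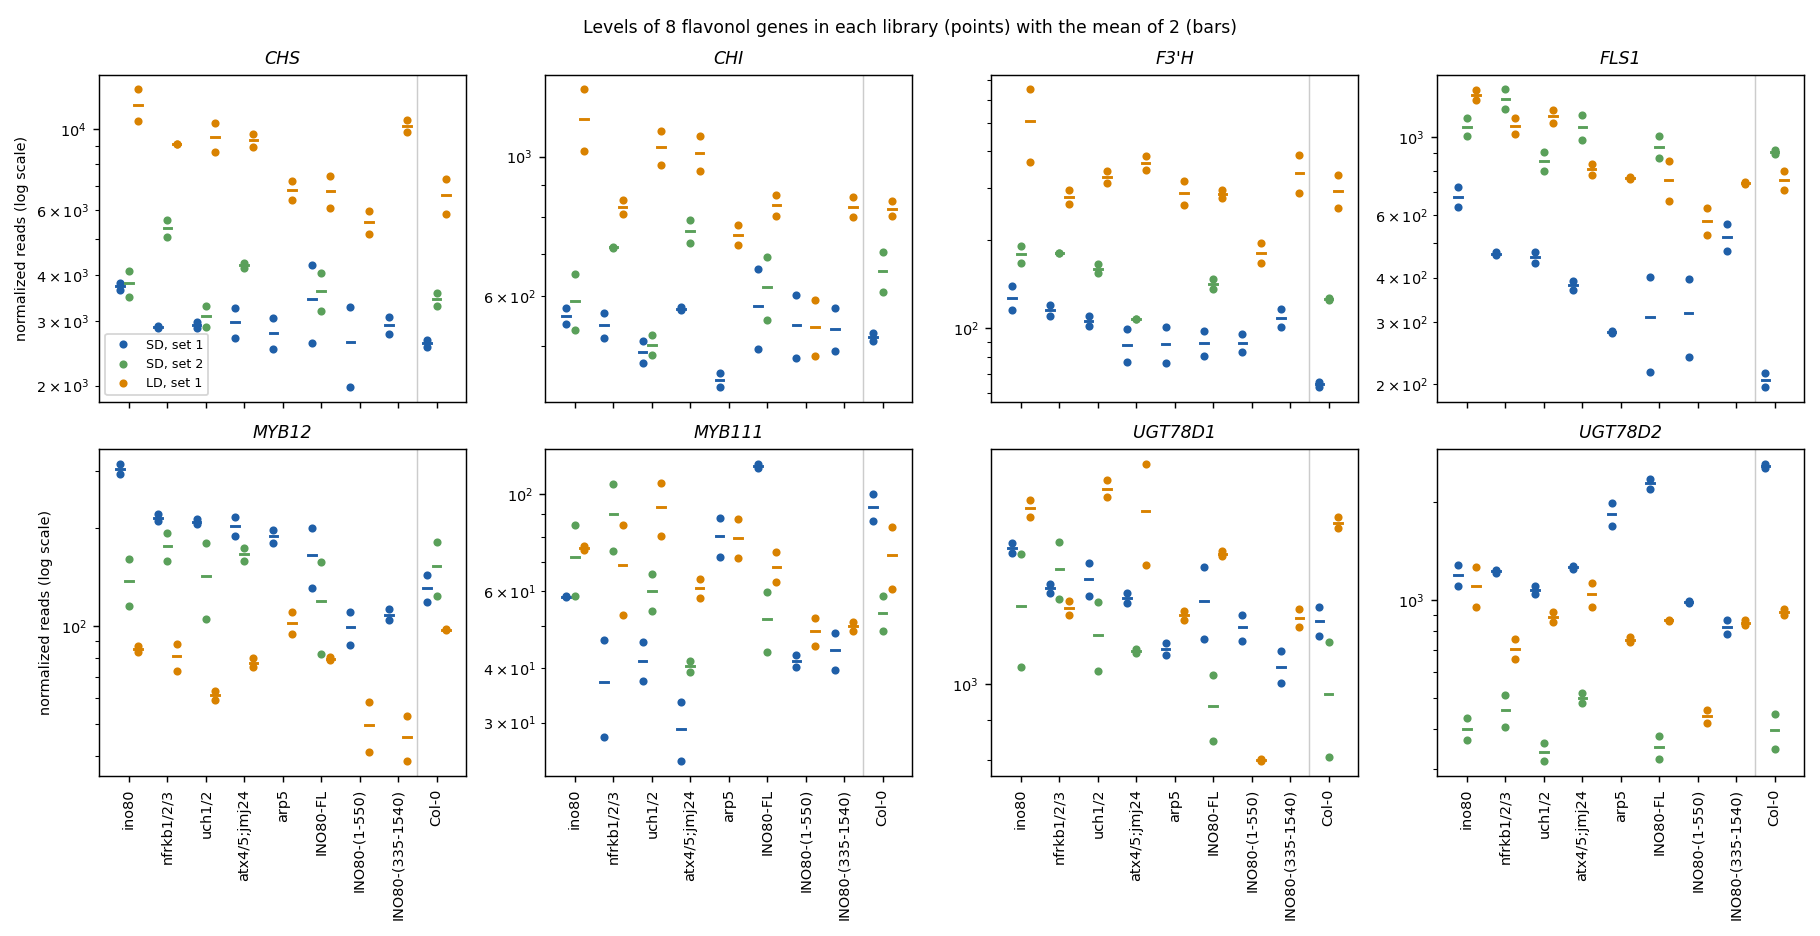
Levels of the 8 well-measured genes (y axis, normalized reads on a log scale) in each library, by genotype (x axis) and by condition (colour), with Col-0 at the right. Points are libraries and bars the mean of 2. SD points of set 1 lie below LD points for CHS and F3'H in every genotype, and Col-0 and INO80-FL stand above the other lines for UGT78D2 in SD of set 1.

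Short days against long days gave the broadest change in these genes. In set 1, 58 of 90 member tests (10 genes in 9 genotypes) were called, 17 higher in SD and 41 lower, or 64.4% against 33.8% of tests over all genes (16.7% higher and 17.1% lower). A gene was called where limma's moderated test gave a Benjamini-Hochberg adjusted p under 0.05 over all genes of the table, and changes are log2 fold changes of value + 1. By genotype, the share of all genes called was 32.8% in ino80, 34.5% in nfrkb1/2/3, 30.8% in uch1/2, 33.4% in atx4/5;jmj24, 34.1% in the libraries labelled arp5, 34.9% in INO80-(1-550), 33.5% in INO80-(335-1540), 32.2% in INO80-FL and 37.6% in Col-0. CHS and F3'H were lower in SD in 9 of 9 genotypes, by log2 changes of -1.01 to -1.81 for CHS and of -1.01 to -2.16 for F3'H. CHI and FLS1 were lower in 8 of 9 genotypes each. The activator MYB12 moved the opposite way and was higher in SD in 8 of 9 genotypes, with Col-0 at 0.42 and not called.

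In Col-0, CHS read 2556 and 2657 in SD against 5867 and 7323 in LD (log2 fold change -1.33, SE 0.192, limma adjusted p = 6.89e-06). FLS1 read 196.3 and 215.6 in SD against 706.1 and 803.8 in LD (-1.87, SE 0.198, limma adjusted p = 8.87e-08), and F3'H 65.7 and 63.0 against 256 and 332. No library of SD overlapped one of LD for these 3 enzyme genes. The glucosyltransferase gene UGT78D2 went up instead, with 2561 and 2634 in SD against 898.1 and 938 in LD (1.50, SE 0.105, limma adjusted p = 1.29e-10). In Col-0 the rhamnosyltransferase gene UGT78D1 was slightly lower, at 1149 and 1253 against 1576 and 1627 (-0.42). UGT78D1 was also called lower in uch1/2 (-0.38) and atx4/5;jmj24 (-0.35), lost in 1 and 2 of 11 alternative settings. In INO80-(1-550), UGT78D1 was called higher in SD (0.56). UGT78D2 was higher in SD in 7 of 9 genotypes; it was not called in ino80 or INO80-(335-1540), and the calls in uch1/2 (0.27) and atx4/5;jmj24 (0.28) are lost in 8 and 4 of 11 alternative settings, among them the fit with no filter on low values and most fits that leave out 1 library. MYB111 was called higher in SD only for INO80-FL and lower for nfrkb1/2/3, uch1/2 and atx4/5;jmj24, with the INO80-FL call lost in 3 and the nfrkb1/2/3 call in 2 fits that leave out 1 library, and MYB11 was called lower in uch1/2 at 5.70 and 0 in SD against 11.25 and 9.05 in LD, a call lost in 4 of 11 alternative settings.

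The SD libraries of set 1 also differed from the LD libraries in age and in the levels of morning clock genes. The labels give no harvest time, so clock phase is not known. The morning clock gene CCA1 read 17300 and 17230 in Col-0 in SD of set 1 against 2556 and 2127 in LD, and the morning gene LHY 18310 and 17700 against 1543 and 1342. In SD of set 2, CCA1 read 53.3 and 34.9 and LHY 9.43 and 9.48 in Col-0, while the evening gene TOC1 read 5493 and 5996, against 332 and 242 in SD of set 1 and 392 and 443 in LD. Day length, age and clock phase cannot be told apart here. FLS1 shows how far the 2 sets of SD libraries lie apart: Col-0 read 919.6 and 895.3 in set 2, above the LD libraries, and 196.3 and 215.6 in set 1. UGT78D2 did the reverse, with 444.9 and 347.8 in set 2 and 2561 and 2634 in set 1. The tables were normalized separately, and no test was made across them.

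**Figure D2:**
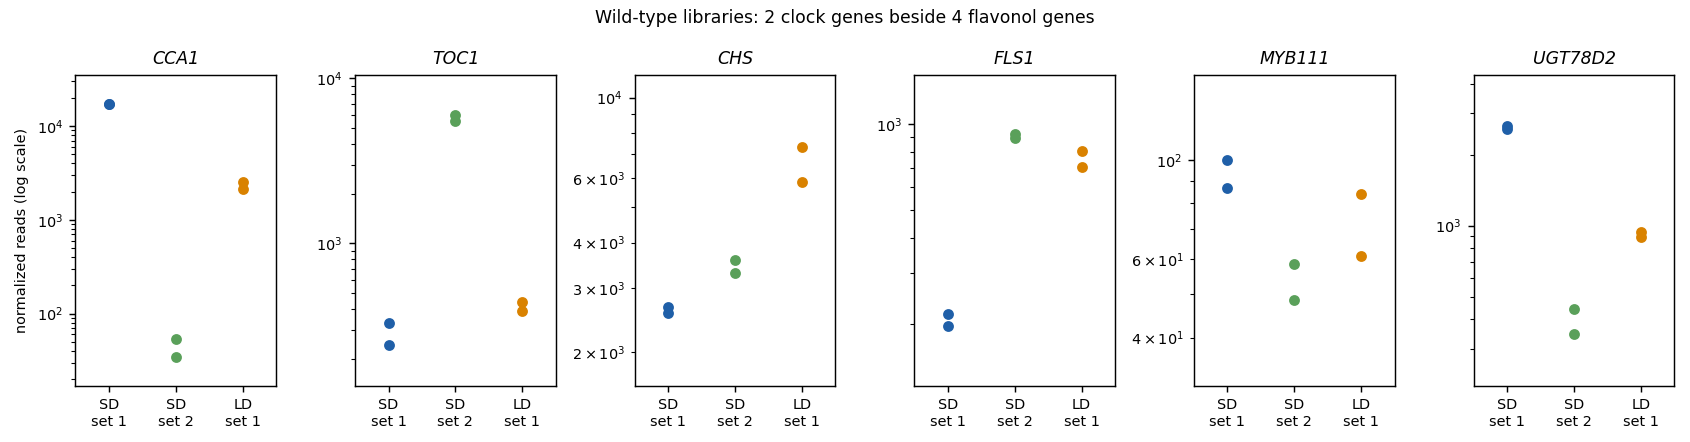
Levels in Col-0 libraries (y axis, normalized reads on a log scale) of the clock genes CCA1 and TOC1 and of CHS, FLS1, MYB111 and UGT78D2, in SD of set 1, SD of set 2 and LD. Each point is 1 library; CCA1 is highest and TOC1 lowest in SD of set 1, and UGT78D2 reads 2561 and 2634 there.

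In long days, the enzyme genes of the pathway were higher in ino80 seedlings. Of 80 member tests of a line against Col-0 in LD, 18 were called, 7 higher and 11 lower, or 22.5% against 19.7% of tests over all genes (8.93% higher and 10.8% lower). In ino80, 4 members rose and none fell, where 28.6% of all genes were called. CHS read 10480 and 12800 in ino80 against 5867 and 7323 in Col-0 (0.82, SE 0.192, limma adjusted p = 0.00219), and FLS1 read 1274 and 1357 against 706.1 and 803.8 (0.80, SE 0.198, limma adjusted p = 0.00351). Both ino80 libraries lay above both Col-0 libraries for each gene. CHI read 1020 and 1279 in ino80 against 803.6 and 849.1 in Col-0 (0.47, limma adjusted p = 0.00801), and F3'H 368.4 and 650.5 against 255.7 and 331.8 (0.75, limma adjusted p = 0.00821). The groups do not overlap for these genes either, but both calls are lost without the first Col-0 library or without the second ino80 library, which takes F3'H to 0.34. The MYB activators and both glycosyltransferases had log2 changes of -0.20 to 0.26 in ino80 apart from MYB11 (0.80), and none was called.

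The other mutants gave only parts of this pattern in LD. In uch1/2, CHS read 10350 and 8673 against 5867 and 7323 in Col-0 (0.53, limma adjusted p = 0.0406) and FLS1 1191 and 1097 against 706.1 and 803.8 (0.60, limma adjusted p = 0.0251), where 28.5% of all genes were called. Both calls are lost with no filter on low values and in 2 or more of the fits that leave out 1 library of a group. MYB12 fell in uch1/2, to 59.4 and 63.3 against 97.8 and 97.7 in Col-0 (-0.66, limma adjusted p = 0.00787), a call lost without the first uch1/2 library. In nfrkb1/2/3, CHS read 9116 and 9117, above both Col-0 libraries, with a change of 0.48 that was not called, and the called members were UGT78D1 (-0.36) and UGT78D2 (-0.38), where 25.5% of all genes were called. In libraries labelled arp5, UGT78D1 was the member called (-0.39, limma adjusted p = 0.0103), where 9.9% of all genes were called. These glycosyltransferase calls are lost with equal library totals and without some single libraries. In atx4/5;jmj24, no member was called and 2 had an unadjusted p under 0.05 by limma, where 13.3% of all genes were called; CHS read 9710 and 8939 there. CHS was thus above both Col-0 libraries in 4 of 5 mutants and called in 2.

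Some organ markers also differed between ino80 and Col-0. In LD the summed level of 8 green leaf markers was 759700 to 783000 in ino80 against 1211000 to 1240000 in Col-0, and 7 of the 8 fell. The sum of 14 root markers was 8529 to 10010 against 8163 to 8778, with 1 higher and 1 lower, and no root marker was under 1 in both libraries of a group. The sum of 9 seed markers was 763.9 to 2300 in ino80 against 1.70 to 46.2 in Col-0, with 5 of the 8 tested higher. Their part in the CHS and FLS1 results was not tested.

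The transgenic lines, which carry INO80 or a part of it in the ino80 mutant, differed from ino80 and from each other in LD. Against ino80, 17 of 30 member tests were called and all 17 were lower, or 56.7% against 25.7% over all genes (14% higher and 11.8% lower). In INO80-FL, CHS (-0.78), CHI (-0.45), F3'H (-0.78), FLS1 (-0.81) and UGT78D2 (-0.34) were lower than in ino80, where 30.8% of all genes were called, and each of these calls is lost when 1 of the libraries of INO80-FL or ino80 is left out. Against Col-0 no member was called in INO80-FL in LD, none had an unadjusted p under 0.05 by limma, and 0.121% of all genes were called. CHS read 6085 and 7456 and FLS1 659.5 and 853.3 in INO80-FL, within or around the Col-0 libraries.

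In INO80-(1-550), 7 members were lower than in ino80 and 5 were lower than in Col-0. Its changes relative to ino80 were -1.06 for CHS, -1.10 for CHI, -1.44 for F3'H, -1.19 for FLS1, -0.78 for MYB12, -1.06 for UGT78D1 and -1.32 for UGT78D2, where 25.6% of all genes were called, and the MYB12 call is lost without the second library of the line. UGT78D1 read 803.7 and 797.6 in INO80-(1-550) against 1576 and 1627 in Col-0 (-0.999, SE 0.0957, limma adjusted p = 5.07e-08). UGT78D2 read 417.6 and 457.9 against 898.1 and 938 (-1.07, SE 0.105, limma adjusted p = 7.3e-08), and CHI 481 and 591.2 against 803.6 and 849.1 (-0.63). For each of these genes both INO80-(1-550) libraries lay well below both Col-0 libraries, and 24.8% of all genes were called in that comparison. F3'H (-0.69) and MYB12 (-0.98) were lower than in Col-0 as well; the F3'H call is lost without the second Col-0 library or the first library of the line. CHS and FLS1 had changes of -0.24 and -0.38 from Col-0 and were not called.

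In INO80-(335-1540), CHS was higher than in Col-0. It read 9805 and 10600 in this line against 5867 and 7323 in Col-0 (0.64, limma adjusted p = 0.0155), a call lost without the first Col-0 library or the second library of the line, and it was not called against ino80. FLS1 read 735 and 744.3, within the range of Col-0, and was lower than in ino80 (-0.83, limma adjusted p = 0.00456). CHI (-0.46), MYB12 (-0.90), UGT78D1 (-0.46) and UGT78D2 (-0.36) were also lower than in ino80, where 20.8% of all genes were called. The CHI and UGT78D2 calls are lost without the second ino80 library or the first library of the line. The UGT78D2 call is also lost without the line's second library. MYB12 read 52.8 and 38.5 against 97.8 and 97.7 in Col-0 (-1.10, limma adjusted p = 8.38e-05), and 38.5 is the lowest value of that gene in the 48 libraries. UGT78D1 read 1246 and 1182 against 1576 and 1627 in Col-0 (-0.40, limma adjusted p = 0.003). Against Col-0, 26.9% of all genes were called in INO80-(335-1540).

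Set directly against each other in both day lengths, the truncated lines gave 6 of 20 member tests called, all lower in INO80-(1-550), or 30% against 13.4% over all genes (6.57% higher and 6.86% lower). In LD, CHS read 5169 and 5957 in INO80-(1-550) against 9805 and 10600 in INO80-(335-1540) (-0.88, SE 0.192, limma adjusted p = 0.0022). UGT78D2 (-0.96), F3'H (-0.89), CHI (-0.64) and UGT78D1 (-0.60) were also lower, where 19.1% of all genes were called, and the F3'H call is lost without the second INO80-(335-1540) library. In SD, FLS1 was the member called (-0.76, limma adjusted p = 0.0201), where 7.75% of all genes were called, and that call is lost without the first INO80-(1-550) or the second INO80-(335-1540) library.

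**Figure D3:**
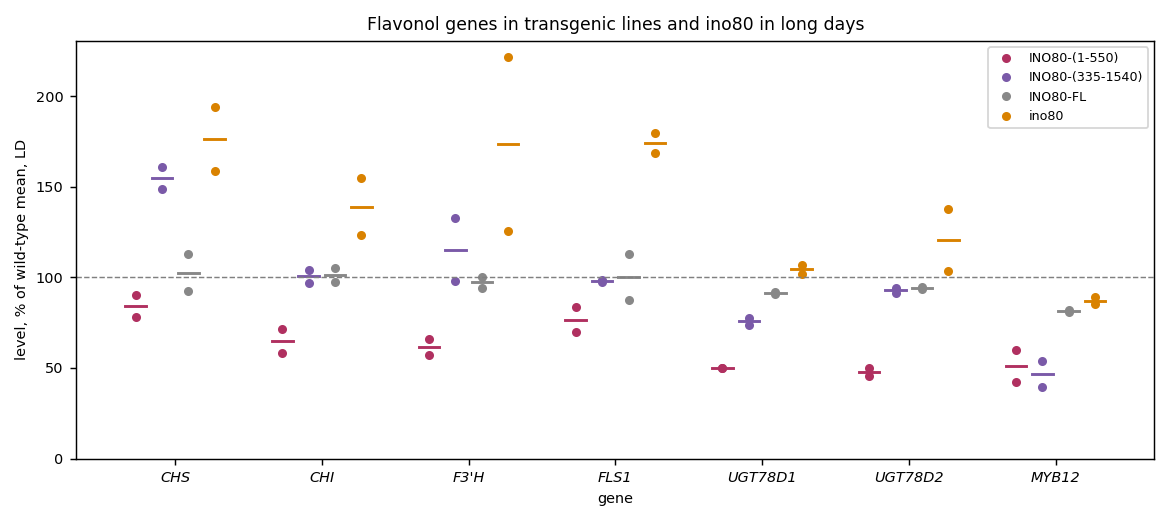
Levels in LD as a percentage of the Col-0 mean (y axis; dashed line at 100) for 7 genes in INO80-(1-550), INO80-(335-1540), INO80-FL and ino80. Points are libraries and bars the mean of 2; INO80-(1-550) is lowest for CHS, CHI, F3'H, FLS1, UGT78D1 and UGT78D2, and its CHS libraries read 5169 and 5957.

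In short days of set 1, members of the pathway moved in both directions. Of 80 member tests against Col-0, 30 were called, 17 higher and 13 lower, or 37.5% against 25.9% over all genes (11.9% higher and 14.1% lower). FLS1 and MYB12 rose, UGT78D2 and MYB111 fell, and CHI was not called in any line. UGT78D1 was called only in ino80, at 1510 and 1465 against 1149 and 1253 in Col-0 (0.31, limma adjusted p = 0.014). That call is lost without the first library of ino80 or of Col-0. By line, the share of all genes called was 35.1% in ino80, 31.8% in nfrkb1/2/3, 38.7% in uch1/2, 27.2% in atx4/5;jmj24, 16.2% in the libraries labelled arp5, 24.3% in INO80-(1-550) and 33.9% in INO80-(335-1540). UGT78D2 was lower in ino80, nfrkb1/2/3, uch1/2 and atx4/5;jmj24, in the libraries labelled arp5 and in both truncated lines. FLS1 was higher in the same lines apart from the libraries labelled arp5.

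UGT78D2 gave the clearest separation. It read 1105 and 1281 in ino80, 1215 and 1240 in nfrkb1/2/3, 1040 and 1102 in uch1/2, 1276 and 1248 in atx4/5;jmj24 and 1691 and 1987 in the libraries labelled arp5, against 2561 and 2634 in Col-0. It read 991.8 and 980.8 in INO80-(1-550), 866.6 and 785.6 in INO80-(335-1540) and 2371 and 2207 in INO80-FL. Every library of the mutants and truncated lines lay below every Col-0 and INO80-FL library. The log2 change was -1.13 in ino80 (SE 0.105, limma adjusted p = 2.6e-08), -1.40 in INO80-(1-550) (limma adjusted p = 1.37e-09) and -1.65 in INO80-(335-1540) (limma adjusted p = 6.71e-11). In libraries labelled arp5 it was -0.50 (limma adjusted p = 0.00202), and that call is lost without their first library.

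FLS1 moved the other way. It read 634.2 and 722.1 in ino80 against 196.3 and 215.6 in Col-0 (1.71, SE 0.198, limma adjusted p = 5.53e-07). Its level was 462.8 and 472.9 in nfrkb1/2/3 (1.18), 441.4 and 473.1 in uch1/2 (1.15) and 391.5 and 369.7 in atx4/5;jmj24 (0.88), and each was called. In libraries labelled arp5, FLS1 read 282.1 and 278.9, above both Col-0 libraries, with a change of 0.45 that was not called. INO80-(335-1540) read 477.3 and 568.8 (1.34, limma adjusted p = 1.55e-05). INO80-(1-550) read 238.9 and 395.9 (0.58, limma adjusted p = 0.0356), and INO80-FL read 217 and 401.1, not called, so in both of these lines the second library stood far above the first; the INO80-(1-550) call is lost in 4 of 11 settings: without that second library, at 0.21, without either Col-0 library and with no filter. The other enzymes changed less: F3'H was higher in ino80 (0.96), nfrkb1/2/3 (0.82), uch1/2 (0.71; lost without the second Col-0 or the first uch1/2 library) and INO80-(335-1540) (0.74; lost without its first library), and CHS in ino80 with 3645 and 3805 against 2556 and 2657 in Col-0 (0.51, limma adjusted p = 0.0399), a call lost in each fit that leaves out a library of either group.

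The activators parted from each other. MYB12, the root-biased activator, read 293.1 and 316.1 in ino80 against 143.9 and 118.8 in Col-0 (1.21, SE 0.183, limma adjusted p = 1.74e-05). It was also higher in nfrkb1/2/3 (0.72), uch1/2 (0.68), atx4/5;jmj24 (0.63) and the libraries labelled arp5 (0.53), the last with a limma adjusted p of 0.0498 that is lost in 8 of 11 alternative settings. The calls in nfrkb1/2/3, uch1/2 and atx4/5;jmj24 are each lost without the second Col-0 library, and that in atx4/5;jmj24 also without its own second library. Every mutant library lay above both Col-0 libraries. MYB12 was not called in INO80-(1-550) (87.8 and 110.6) or INO80-(335-1540) (112.7 and 104.5), and relative to ino80 it was lower in both, by -1.62 and -1.48. MYB111, the cotyledon-biased activator, read 58.5 and 58.1 in ino80, 27.8 and 46.5 in nfrkb1/2/3, 45.9 and 37.4 in uch1/2 and 24.5 and 33.4 in atx4/5;jmj24, against 100 and 86.7 in Col-0. The changes were -0.67, -1.35, -1.15 and -1.67 in that order, and the ino80 call (limma adjusted p = 0.031) is lost in each fit that leaves out a library of either group. MYB111 was also lower in INO80-(1-550) (-1.15) and INO80-(335-1540) (-1.07), while INO80-FL read 118 and 115.

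Relative to ino80 in SD of set 1, 10 of 30 member tests were called, 2 higher and 8 lower, or 33.3% against 15.4% over all genes (8.02% higher and 7.4% lower). INO80-FL gave 4 of these calls, with FLS1 (-1.19) and MYB12 (-0.90) lower and MYB111 (0.98) and UGT78D2 (0.94) higher than in ino80, where 27.2% of all genes were called. UGT78D2 was lower in INO80-(335-1540) than in ino80 (-0.53, limma adjusted p = 0.00377; lost without the second ino80 library), where 6.46% of all genes were called. In INO80-(1-550), FLS1 was lower than in ino80 (-1.14, limma adjusted p = 0.00054), where 12.6% of all genes were called. UGT78D1 was lower than in ino80 in INO80-(335-1540) (-0.50) and in INO80-(1-550) (-0.34, lost in 3 of 11 alternative settings). Against Col-0, INO80-FL had no member called and 2 with an unadjusted p under 0.05 by limma, where 0.129% of all genes were called.

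**Figure D4:**
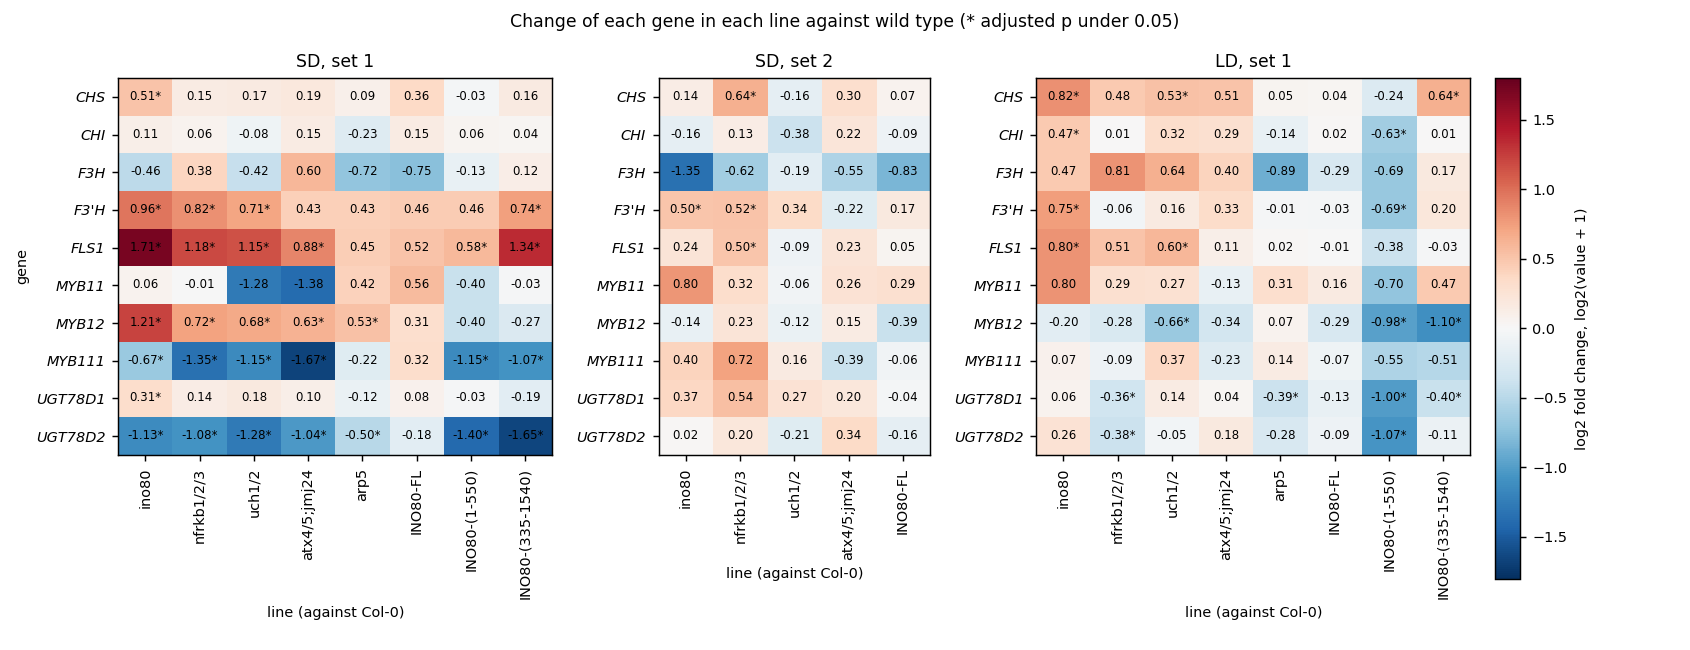
Log2 fold change of value + 1 (colour and printed number) of each of the 10 genes (rows) in each line against Col-0 (columns), in SD of set 1, SD of set 2 and LD. An asterisk marks an adjusted p under 0.05; in SD of set 1 UGT78D2 is marked in 7 of 8 lines, and in SD of set 2 in none.

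Root, green leaf and clock markers also changed in SD of set 1, while the seed markers did so in only some lines. Of 14 root markers, 11 rose in ino80, 12 in nfrkb1/2/3, 13 in uch1/2, 12 in atx4/5;jmj24 and 6 in the libraries labelled arp5. Their sum was 8993 to 10120 in ino80 against 5868 to 6607 in Col-0. It was also above Col-0 in the transgenic lines, at 8312 to 8893 in INO80-(335-1540), 6827 to 6965 in INO80-(1-550) and 7300 to 8360 in INO80-FL. The green leaf sum was 783700 to 823600 in ino80 against 1006000 to 1058000. The seed sum was 1923 to 3384 in the libraries labelled arp5 and 1564 to 4449 in atx4/5;jmj24, against 6.27 to 7.47 in Col-0. It was 4.67 to 7.30 in nfrkb1/2/3, 19.4 to 140 in uch1/2 and 5.63 to 1402 in ino80. CCA1 was lower as well, with 8813 and 8758 in ino80, 7836 and 7515 in uch1/2, 8518 and 7752 in INO80-(335-1540) and 16100 and 14470 in INO80-FL, against 17300 and 17230 in Col-0. The part of these markers in the results for FLS1, MYB12, MYB111 and UGT78D2 was not tested.

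The second set of SD libraries did not give the same picture. Of 50 member tests against Col-0, 4 were called, all higher, or 8% against 12.2% over all genes (5.95% higher and 6.23% lower). F3'H rose in ino80, to 189.8 and 166.9 against 126.7 and 124.3 in Col-0 (0.50, SE 0.109, limma adjusted p = 0.0154), where 14% of all genes were called, and that call is lost in 3 fits that leave out 1 library. In nfrkb1/2/3, where 28.2% of all genes were called, F3'H read 179.7 and 180.9 (0.52, limma adjusted p = 0.00645). CHS read 5654 and 5084 in nfrkb1/2/3 against 3585 and 3303 in Col-0 (0.64, limma adjusted p = 0.00409), and FLS1 read 1364 and 1201 against 919.6 and 895.3 (0.50, limma adjusted p = 0.00975; lost without the first nfrkb1/2/3 library). In these 4 results both mutant libraries lay above both Col-0 libraries. For UGT78D1, which was not called, repeat 3 read higher than repeat 4 in all 6 groups, with 1462 and 1050 in ino80 and 1131 and 808 in Col-0.

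UGT78D2, MYB111 and MYB12 were not called in any line of set 2, and no member was called in uch1/2 or atx4/5;jmj24, where 14.5% and 4.08% of all genes were called and 2 and 1 members had an unadjusted p under 0.05 by limma. UGT78D2 read 432.5 and 368.5 in ino80 against 444.9 and 347.8 in Col-0 and changed by -0.21 to 0.34 over the 4 mutants. MYB111 read 84.9 and 58.6 in ino80 and 105.8 and 74.2 in nfrkb1/2/3, against 58.6 and 48.5 in Col-0, with changes of -0.39 to 0.72 over the mutants. MYB12 changed by -0.14 to 0.23. The SE in set 2 was 0.345 for MYB12 and 0.155 for UGT78D2, against 0.183 and 0.105 in set 1. The smaller MYB12 changes of set 1 could therefore go uncalled in set 2. Mutant and Col-0 libraries overlapped for MYB12 in all 4 mutants, and for UGT78D2 in ino80, nfrkb1/2/3 and uch1/2. For both genes, repeat 3 read above repeat 4 in every group except atx4/5;jmj24, so overlap does not show that a gene was unchanged. In repeats 3 and 4, UGT78D2 read 507.6 and 404.8 in nfrkb1/2/3 and 362.3 and 317.9 in uch1/2. Within each repeat it was above Col-0 in nfrkb1/2/3 and below Col-0 in uch1/2, while in ino80 the repeats went opposite ways. UGT78D2 in atx4/5;jmj24 read 482.3 and 517.5, above both Col-0 libraries. Among the 5 lines present in both sets, 21 member results were called in SD of set 1. Of these, 3 were called in the same direction in set 2 and 12 had the same sign. The same shares over all genes were not computed, and the difference between the sets was not tested. In set 2, INO80-FL had no member called against Col-0 and none with an unadjusted p under 0.05 by limma, where 0.0532% of all genes were called. Against ino80 it had no member called of 10 and 1 with an unadjusted p under 0.05, where 10.9% of all genes were called (5.74% higher and 5.18% lower).

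Root markers were also higher in set 2, with 5 of 14 called in ino80 and 12 in nfrkb1/2/3, and their sum was 8484 to 9703 in nfrkb1/2/3 against 3993 to 4298 in Col-0. The sum was 6077 to 6232 in ino80, 6977 to 7510 in uch1/2, 5347 to 5760 in atx4/5;jmj24 and 4372 to 5301 in INO80-FL. CCA1 did not separate ino80 or nfrkb1/2/3 from Col-0 in set 2, with 55.9 and 48.7 in ino80 and 41.5 and 29.1 in nfrkb1/2/3 against 53.3 and 34.9 in Col-0.

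**Figure D5:**
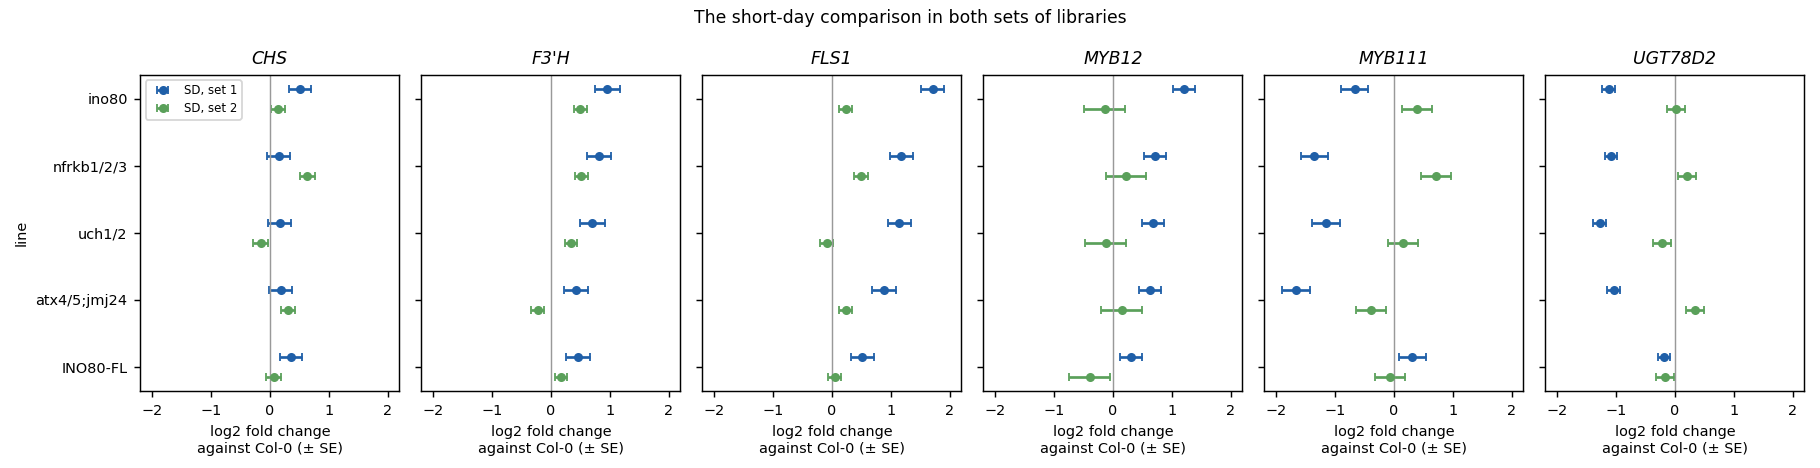
Log2 fold change of value + 1 against Col-0 in SD (x axis, with SE bars) for 6 genes in the 5 lines found in both sets (rows), with set 1 above set 2 in each row. UGT78D2 lies between -1.04 and -1.28 in the 4 mutants in set 1 and between -0.21 and 0.34 in set 2.

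Whether a line's effect differed between day lengths was tested in set 1 as an interaction. Of 80 member tests, 20 were called, 12 with the more positive effect in SD and 8 with the more negative, or 25% against 6.16% over all genes (2.7% more positive and 3.45% more negative). By line, the share of all genes called was 7.36% for ino80, 5.4% for nfrkb1/2/3, 9.74% for uch1/2, 7.27% for atx4/5;jmj24, 0.0078% for the libraries labelled arp5, 7.11% for INO80-(1-550), 12.4% for INO80-(335-1540) and 0% for INO80-FL. MYB12 was more positive in SD in ino80 (1.41, limma adjusted p = 0.00173), uch1/2 (1.34), nfrkb1/2/3 (1.00), atx4/5;jmj24 (0.96) and INO80-(335-1540) (0.83). UGT78D2 was more negative in SD in ino80 (-1.38, limma adjusted p = 1.03e-05), uch1/2 (-1.22), atx4/5;jmj24 (-1.22), nfrkb1/2/3 (-0.70) and INO80-(335-1540) (-1.55), and MYB111 in uch1/2 (-1.52), atx4/5;jmj24 (-1.44) and nfrkb1/2/3 (-1.26). For INO80-(1-550), UGT78D1, CHI, F3'H and FLS1 were more positive in SD, by 0.97, 0.69, 1.15 and 0.96, while the UGT78D2 effect, -1.40 in SD and -1.07 in LD, was not called as different. CHS was not called in any line, and no member was called for INO80-FL (1 with an unadjusted p under 0.05 by limma) or for the libraries labelled arp5 (none). The count falls to 12 without the first or the second Col-0 library in LD, or without the second in SD. In SD of set 2, MYB12, UGT78D2 and MYB111 were not called in any line. The SE of MYB12 was 0.345 there, against 0.183 in SD of set 1. Over the 4 mutants of set 2, MYB12 changed by -0.14 to 0.23, UGT78D2 by -0.21 to 0.34 and MYB111 by -0.39 to 0.72. Day length, age and clock phase cannot be told apart in set 1.

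Genes around the pathway were read from lists of related genes. Against Col-0, the share of all genes called in ino80 was 35.1% in SD of set 1, 28.6% in LD and 14% in set 2. The share was 31.8%, 25.5% and 28.2% in that order in nfrkb1/2/3, 38.7%, 28.5% and 14.5% in uch1/2, and 27.2%, 13.3% and 4.08% in atx4/5;jmj24. In the libraries labelled arp5 it was 16.2% in SD of set 1 and 9.9% in LD. The counts from these short lists are to be read against those shares. In the anthocyanin and tannin branch, 5 of 8 genes were higher in ino80, nfrkb1/2/3, uch1/2 and the libraries labelled arp5 in SD of set 1, and 4 were higher and 1 lower in atx4/5;jmj24. DFR, the first enzyme of the branch, read 84.3 and 47.4 in ino80 and 69.5 and 137 in nfrkb1/2/3, against 4.21 and 7.43 in Col-0 (3.28 and 3.89). TT19, a transferase needed to carry anthocyanins to the vacuole, read 58.4 and 61.0 in ino80 against 6.29 and 8.51 (2.87), and the anthocyanin acyltransferase gene 5MAT 24.6 and 21.5 against 3.14 and 3.21 (2.52). UGT79B1, an anthocyanin xylosyltransferase gene, read 13.1 and 17.9 in ino80 and stood at about 1 read or less in Col-0, so no fold is given. These levels are low beside LD, where DFR read 1560 and 2848 in ino80 and 952 and 1285 in Col-0 and where no gene of the branch was called in any mutant. In set 2 none of the branch was higher in a mutant, and DFR read 168 and 135 in ino80 against 161 and 167 in Col-0. INO80-FL read 7.53 and 42.4 for DFR in SD of set 1, with the second library high as for FLS1.

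Of 6 tested genes of other flavonol synthesis and decoration, 3 were higher in ino80 in SD of set 1, in SD of set 2 and in LD, and none was lower. FLS5, a relative of FLS1, was higher in 4 of 5 mutants in SD of set 1 (median log2 change 0.65), in 3 of 4 in set 2 (0.44) and in 4 of 5 in LD (0.57). It read 3328 and 3960 in ino80 against 2660 and 2018 in Col-0 in SD of set 1, and 3208 and 3483 against 2297 and 2214 in LD. FLS3 was higher in 5 of 5 mutants in SD of set 1 (0.59). The rhamnose synthase gene RHM1 was higher in 4 of 5 there (0.33) and in 3 of 5 in LD (0.33), and the methyltransferase gene OMT1 in 3 of 4 in set 2 (0.36). Of the 8 phenylpropanoid entry genes, which supply the pathway, 2 were higher and 2 lower in ino80 in SD of set 1. The coumarate ligase gene 4CL2 was higher in 5 of 5 mutants there (0.61) and the ammonia-lyase gene PAL2 lower in 5 of 5 (-0.42), and in set 2 PAL3 was lower in 3 of 4 mutants (-0.68). In LD, 4CL2 was higher in 3 of 5 mutants (0.38) and 4CL1 lower in 3 of 5 (-0.24).

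Light regulators of the pathway fell in both day lengths of set 1. In SD, 8 of 10 were lower in ino80, 7 in nfrkb1/2/3, 9 in uch1/2, 7 in atx4/5;jmj24 and 2 in the libraries labelled arp5, and in LD 4, 7, 7, 5 and 2 were lower in that order, with 1 of the 10 higher in uch1/2 in SD and in nfrkb1/2/3 and atx4/5;jmj24 in LD. HY5, the light-response activator of CHS, MYB12 and MYB111, read 764 and 750 in ino80 against 1518 and 1398 in Col-0 (-0.94, limma adjusted p = 4.4e-07). BBX32, a B-box repressor of light signalling, read 71.6 and 76.9 against 767 and 825 (-3.41); in LD it was lower in 4 of 5 mutants (median -1.32), at 37.5 and 42.2 in ino80 against 125 and 81.8 in Col-0. HYH, a relative of HY5, was lower in 4 of 5 mutants in SD of set 1 (-0.90) and in LD (-0.43). RUP1, a repressor of ultraviolet-B signalling, read 152 and 156 in ino80 against 330 and 335 in Col-0 in SD of set 1 (-1.11). In set 2, HY5 read 391 and 363 in ino80 against 408 and 343 in Col-0 (0.01), and no light regulator was called in ino80, uch1/2 or atx4/5;jmj24, while nfrkb1/2/3 had 1 higher and 3 lower.

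Among 11 MYB, bHLH and WD40 regulators and MYB repressors, 2 were higher and 3 lower in ino80 in SD of set 1. TT8, a bHLH activator of DFR, was higher in 5 of 5 mutants (median 1.49) at 16.0 and 15.9 in ino80 against 4.25 and 11.6 in Col-0, and MYBL2, a MYB repressor of anthocyanin genes, was lower in 4 of 5 (-1.05) and in 3 of 5 in LD (-0.71). TTG1, the WD40 partner of these regulators, was lower in 4 of 5 in SD of set 1 (-0.70) and in 3 of 5 in LD (-0.32). PAP2, an anthocyanin activator, was lower in 3 of 5 mutants in LD and in 4 of 5 in SD of set 1, where it read at most 4.24. In LD it read 0.987 and 0.981 in ino80 against 18.5 and 11.1 in Col-0. Kelch F-box proteins mark PAL and CHS for degradation. Of these genes, AT1G23390 was lower in 4 of 5 mutants in SD of set 1 (-1.08) and in 3 of 5 in LD (-0.54), and KFB20 in 4 of 5 in SD of set 1 (-0.53), and KFB01 was higher in 4 of 5 in SD of set 1 (0.50) and in 4 of 5 in LD (0.65). AT5G13950, which RefSeq annotates as a nuclear factor kappa-B-binding protein gene, lies 5.58 kb from CHS on chromosome 5.

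Likeness to the members over the 18 group means of set 1 is given as a description. These means share libraries with the set 1 comparisons above, and day length and the levels of clock genes differ among them. Of 20096 genes with a mean of at least 10, the 3 outside the set whose log2 levels followed CHS most closely were CYP706A1, AT2G47390 and KAT5, each at Pearson's r = 0.98. F3'H ranked 9th for CHS (0.97), CHI 228th (0.93) and FLS1 681st (0.88), and MYB12 had r = -0.73 with CHS. For FLS1 they were AT2G42490, AT3G06035 and AT1G53070 (0.97, 0.96 and 0.96), for MYB12 ABCI20, ABCI21 and ZFP6 (0.95, 0.93 and 0.93), and for MYB111 BARD1, AT5G57210 and AT2G01720 (0.90, 0.85 and 0.84).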

How the data were processed

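Each table as deposited holds a signal per gene, which the values, not whole and with near-equal totals, show to be counts scaled by the authors to 1 library size, separately for the 2 sets. Reads were single-ended and 50 bases long per the labels' protocols, and HISAT2 2.2.0, TAIR10 and edgeR (no version) are named in the submitters' processing notes. The counting program, its strand setting and its treatment of overlapping genes are not given in the sources used here. Whole reads could not be recovered, so no count model was run.

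Tests used log2(value + 1) and left out any gene that did not reach 1 in 2 libraries (25638 tested in set 1, 24458 in set 2; all 10 members passed in both). limma 3.58.1 in R 4.3.3, with a mean-variance trend and 1 mean per group, was fitted to all libraries of a table (18 and 6 residual degrees of freedom), and p-values were adjusted over all genes of a comparison. A gene was called at an adjusted p under 0.05. The sets were never pooled. Each group has 2 libraries, which limits precision. The fit was tested on simulated data. Python 3.11.15 with pandas 2.3.3 and matplotlib 3.10.9 did the rest.

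The members and gene lists were chosen with earlier results of these data known. The text names the 10 members; from each list, up to 4 genes called in at least 3 mutants in 1 day length and set, by size of the median change; and the 3 genes most like CHS, FLS1, MYB12 and MYB111. Alternatives were pseudocounts of 0.5 and 5, no filter or a minimum of 10, equal library totals, quantile normalization, the replicate number as a block, and leaving out each library.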

Additional observations from a re-analysis of the deposited data

Results flagged for a closer look

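The 20 results below had a line effect that differed between day lengths by an interaction test in set 1 (limma, adjusted p under 0.05), given as the log2 effect in SD minus that in LD. MYB12 had 1.41 in ino80, 1.34 in uch1/2, 1.00 in nfrkb1/2/3, 0.96 in atx4/5;jmj24 and 0.83 in INO80-(335-1540). UGT78D2 had -1.38 in ino80, -0.70 in nfrkb1/2/3, -1.22 in uch1/2, -1.22 in atx4/5;jmj24 and -1.55 in INO80-(335-1540). MYB111 had -1.26 in nfrkb1/2/3, -1.52 in uch1/2 and -1.44 in atx4/5;jmj24. FLS1 had 0.91 in ino80, 0.96 in INO80-(1-550) and 1.36 in INO80-(335-1540), and UGT78D1 had 0.50 in nfrkb1/2/3. INO80-(1-550) further had 0.69 for CHI, 1.15 for F3'H and 0.97 for UGT78D1. The FLS1 difference in ino80 (adjusted p = 0.0491) is lost in 12 of 15 alternative settings. MYB12 in INO80-(335-1540) and UGT78D1 in nfrkb1/2/3 are lost in 8, FLS1 in INO80-(1-550) in 7, MYB12 in nfrkb1/2/3 and in atx4/5;jmj24 in 6, and MYB111 in nfrkb1/2/3 and CHI in INO80-(1-550) in 5. F3'H in INO80-(1-550) is lost in 4 and MYB111 in atx4/5;jmj24 in 2. The other 10 were called in all 15. Age and the levels of morning clock genes differ between these day lengths, and their part was not tested.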

How the results depend on the processing

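No result changed sign while called. With equal library totals, 7 members were called in SD of set 2, and with the replicate block 8, against 4. INO80-FL against ino80 in set 2 gave 1 member called with no filter, with equal totals and with the replicate block, against 0. Leaving out 1 library at a time gave 12 to 20 calls against Col-0 in LD (18 with all), 22 to 32 in SD of set 1 (30), 3 to 5 in set 2 (4), 11 to 18 for transgenic lines against ino80 in LD (17; 11 without the second ino80 library), 8 to 12 in SD (10), 5 to 6 between the truncated lines (6), 56 to 60 for SD against LD (58) and 12 to 21 for the interaction (20); the cause was not tested. Where 1 library of a group was left out, the lone library is assumed to vary like the other groups. The repeat numbers were not taken to pair samples, since not every pair of groups had deviations correlated above 0.1. The correlations ran from -0.439 to 0.372 in set 1, with 23 of 153 pairs above 0.1. In set 2 they ran from -0.197 to 0.463 (median 0.271), with 10 of 15 pairs above 0.1. The mean correlation with the other groups was positive for 14 of 18 groups in set 1 and 5 of 6 in set 2. The set 2 values are a hint from the data of shared shifts there. With 2 libraries a group, small changes of MYB11 and F3H were not detectable at this depth.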
